A study of Mus musculus with 15 samples.

Results

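Resident macrophages of the posterior eye were followed through 9 identity genes, Cx3cr1, Csf1r, Aif1, Mrc1, Lyve1, Cd163, Adgre1, P2ry12 and Tmem119, which are used as markers of tissue macrophages and microglia. They were chosen by name, with earlier results of these data known and with no threshold on their values, and all 9 of the 55421 listed genes were found and passed the filters that left 18979 genes for testing. RNA was sequenced from posterior eyecups, the tissue of retinal pigment epithelium (RPE), choroid and sclera that remains once the neural retina is removed, of 15 mice that were 2.5 months old, and each mouse gave 1 library. The groups were 4 WT mice, 6 mice heterozygous for the FUN025 allele of Tmem135 (FUN025/+) and 5 mice homozygous for it (FUN025/FUN025), all on the C57BL/6J background, with both sexes used and the sex of each mouse not labelled. The FUN025 mutation is carried in the germ line, so every cell type of the eyecup has it, and the eyecup is a mixture of cell types in which macrophages are a minor part. In such bulk samples, fewer cells of a type and less RNA per cell cannot be told apart.

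Tissue macrophages depend on signalling through the receptor CSF1R, whose ligands are CSF1 and IL-34. Microglia, the macrophages of the retina and brain, also carry CX3CR1, the receptor for the chemokine fractalkine (CX3CL1), and the purinergic receptor P2RY12. The choroid holds its own resident macrophages, many of them along vessels, and these are known for scavenger receptors such as CD163, MRC1 (CD206) and the hyaluronan receptor LYVE1. The comparison asked whether the amount of transcript from these genes differed between genotypes at an early stage of the disease, before extensive loss of retinal cells.

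None of the 9 genes changed between any genotypes by edgeR's quasi-likelihood test at an adjusted p of 0.05, while 13.7% of all tested genes passed it between FUN025/+ and WT eyecups, 14.0% between FUN025/FUN025 and WT, and 0.522% between FUN025/FUN025 and FUN025/+. DESeq2 and limma-trend also called 0 of the 9 in each comparison. At an unadjusted p under 0.05 the same edgeR test gave 0, 1 and 1 of the 9 genes, beside 28.8%, 28.6% and 6.23% of all tested genes, and the 1 gene was P2ry12 both times. The 2 comparisons with WT share their control mice. The genotypes overlapped in CPM for all 9 genes in all 3 comparisons, whereas 10.9%, 14.8% and 1.12% of the tested genes did not overlap. All 27 of the 95% confidence intervals lay inside a 2-fold change, the widest reaching 1.98-fold for Adgre1 in FUN025/+ eyecups. The median log2 fold change of the 9 genes was 0.059, 0.047 and -0.008, beside -0.002, -0.007 and -0.004 over all tested genes.

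**Figure D1:**
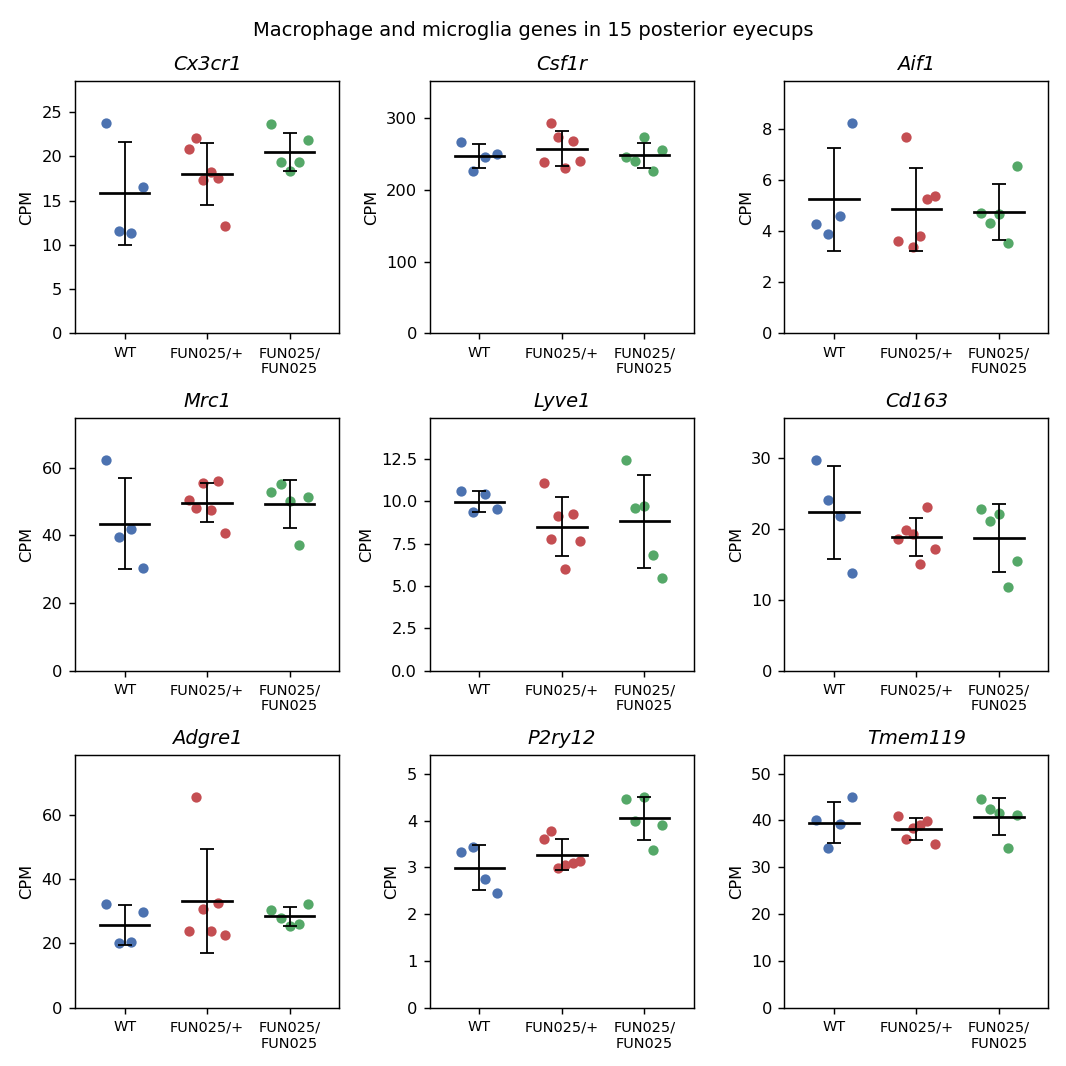
Level of each of the 9 genes by genotype, in CPM (counts relative to the TMM-scaled library total), with 1 point per mouse, a line at the mean and bars of 1 SD for 4 WT, 6 FUN025/+ and 5 FUN025/FUN025 mice. The genotypes overlap in every panel, and for P2ry12 the FUN025/FUN025 mice overlap with WT only through 1 FUN025/FUN025 mouse at 3.37 CPM, beside WT mice of up to 3.44 CPM, while FUN025/+ mice (2.99 to 3.77 CPM) lie among both.

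The libraries were not equally deep. WT libraries held 18094977 to 20029919 counts, FUN025/+ libraries 10903183 to 13456349 and FUN025/FUN025 libraries 11053535 to 15038383, so that every WT library was deeper than every mutant library, and depth cannot be told apart from the WT genotype. A floor of 3 counts corresponded to 0.150 to 0.275 CPM before TMM scaling, which covers counting error only, and each of the 9 genes was above it in all 15 libraries. Tmem135 itself was measured at 64.0 ± 2.99 CPM (SD, n = 4) in WT, 75.0 ± 7.30 CPM (SD, n = 6) in FUN025/+ mice and 88.3 ± 4.57 CPM (SD, n = 5) in FUN025/FUN025 mice. Skeletal muscle markers summed to 3577 to 6829 CPM in WT, 1934 to 5083 CPM in FUN025/+ and 3047 to 3756 CPM in FUN025/FUN025 libraries, and rod markers to 230.0 to 2257, 86.5 to 659 and 90.5 to 411 CPM.

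Csf1r, the receptor that macrophages need for survival, lies at chr18:61100598-61132149 (GRCm38, plus strand). Its level was 266, 226, 245 and 249 CPM in the WT eyecups, between 230.4 and 292 CPM with a median of 254 in FUN025/+ and 245, 240.1, 273, 225 and 255 CPM in FUN025/FUN025. The 3 genotypes covered nearly the same range. The log2 fold change against WT was 0.059 (95% interval -0.087 to 0.204) in FUN025/+ and 0.006 (-0.145 to 0.157) in FUN025/FUN025, and both intervals lay between 0.904-fold and 1.15-fold. An exon of Hmgxb3 on the opposite strand overlaps Csf1r and 14.95% of its exon sequence is found in other genes. The strand setting of the counting is not given in the sources used here, so reads of that stretch cannot be assigned to one gene or the other.

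Cx3cr1, the fractalkine receptor, lies at chr9:119901616-120069879 (minus strand). WT eyecups held 23.8, 11.6, 11.4 and 16.6 CPM, FUN025/+ eyecups 12.1 to 22.1 CPM with a median of 17.9, and FUN025/FUN025 eyecups 23.6, 19.3, 18.4, 19.3 and 21.9 CPM. WT replicate 1 was the highest of all 15 libraries, and the other WT mice were below every FUN025/FUN025 mouse. The log2 fold change of FUN025/FUN025 against WT was 0.38 (SE 0.205, 95% interval -0.06 to 0.81, edgeR adjusted p = 0.244) and did not pass the threshold. Without WT replicate 1 it was 0.64 with an edgeR adjusted p of 0.0184, so 1 mouse decided the call.

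P2ry12, the purinergic receptor used to tell microglia from other macrophages, lies at chr3:59216272-59262871 (minus strand, with exons of Med12l on the opposite strand). It was 3.34, 3.44, 2.75 and 2.45 CPM in WT, 2.99 to 3.77 CPM with a median of 3.12 in FUN025/+, and 4.47, 4.003, 4.50, 3.37 and 3.90 CPM in FUN025/FUN025 eyecups. Only FUN025/FUN025 replicate 4 was below the highest WT mouse. The log2 fold change of FUN025/FUN025 was 0.44 against WT (SE 0.147, 95% interval 0.13 to 0.74, edgeR adjusted p = 0.0544) and 0.31 against FUN025/+ (95% interval 0.023 to 0.59, edgeR adjusted p = 0.731). It was 0.13 (-0.17 to 0.43) for FUN025/+ against WT. These levels rest on 33 to 68 counts per library, and the coefficient of variation within a genotype, 9.97% to 15.9%, was about that of counting alone, 13.5% to 15.9%. The adjusted p of FUN025/FUN025 against WT ran from 0.0409 to 0.435 over 28 fits, and 4 of them passed the threshold, among them those without WT replicate 2 (log2 fold change 0.52, edgeR adjusted p = 0.0458) and without FUN025/FUN025 replicate 4 (0.50, edgeR adjusted p = 0.0409).

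Tmem119, a membrane protein that marks microglia in the brain and is also made by bone-forming cells, lies at chr5:113793729-113800516 (minus strand). Its level was 40.0, 34.1, 39.2 and 44.9 CPM in WT, 35.0 to 41.0 CPM with a median of 38.7 in FUN025/+, and 44.6, 42.4, 41.7, 34.2 and 41.2 CPM in FUN025/FUN025 eyecups. The genotypes overlapped almost fully, and the log2 fold changes against WT were -0.049 (95% interval -0.21 to 0.11) and 0.047 (-0.12 to 0.22). Together with Csf1r it varied least between mice of 1 genotype, with biological coefficients of variation of 0.0882 and 0.0888, under the median of 0.112 over all tested genes. The other members were above that median: Adgre1 (0.296), Aif1 (0.261), Cd163 (0.221), Cx3cr1 (0.209), Lyve1 (0.197), Mrc1 (0.179) and P2ry12 (0.123). A wider spread makes a change of a given size harder to call.

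Adgre1, which encodes the F4/80 antigen, lies at chr17:57358691-57483527 (plus strand). WT eyecups held 32.3, 20.3, 20.3 and 29.7 CPM, FUN025/FUN025 eyecups 30.3, 27.9, 25.4, 26.1 and 32.4 CPM, and FUN025/+ eyecups 22.8 to 65.5 CPM with a median of 27.3. FUN025/+ replicate 2, at 65.5 CPM, stood apart from the next FUN025/+ mouse at 32.7 CPM. The log2 fold change of FUN025/+ against WT was 0.37 (95% interval -0.24 to 0.98) with that mouse and 0.061 without it. The other general macrophage gene, Aif1, encodes the calcium-binding protein IBA1 and lies at chr17:35170991-35176068 (minus strand). It was 4.28, 3.87, 4.60 and 8.23 CPM in WT, 3.37 to 7.70 CPM with a median of 4.55 in FUN025/+, and 4.73, 4.31, 4.66, 3.53 and 6.53 CPM in FUN025/FUN025 eyecups. WT replicate 4 held the highest level of all 15 libraries, and the log2 fold changes of -0.11 and -0.14 against WT turned to 0.19 and 0.16 without it.

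The scavenger and endocytic receptors of perivascular and connective tissue macrophages gave the same picture. Mrc1, the mannose receptor, lies at chr2:14229392-14332057 (plus strand) and was 62.1, 39.5, 41.7 and 30.2 CPM in WT, 40.7 to 55.9 CPM with a median of 49.1 in FUN025/+, and 52.7, 55.04, 50.2, 37.0 and 51.3 CPM in FUN025/FUN025 eyecups. The WT mice alone spanned the range of both mutant genotypes. Its log2 fold changes against WT were 0.19 (95% interval -0.17 to 0.56) and 0.18 (-0.19 to 0.56), and without WT replicate 1 that of FUN025/+ was 0.42 with an edgeR adjusted p of 0.0477.

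Cd163, the haemoglobin scavenger receptor, lies at chr6:124304656-124330527 (plus strand). It was 29.7, 24.0, 21.8 and 13.8 CPM in WT, 15.04 to 23.1 CPM with a median of 18.9 in FUN025/+, and 22.8, 21.1, 22.01, 11.8 and 15.5 CPM in FUN025/FUN025 eyecups. The log2 fold changes against WT were -0.25 (95% interval -0.69 to 0.20) and -0.26 (-0.72 to 0.21), within the spread between mice. Lyve1, the hyaluronan receptor that lymphatic endothelium shares with perivascular macrophages, lies on the same chromosome as Tmem135, at chr7:110850607-110863239 (minus strand). It was 10.6, 9.36, 10.4 and 9.51 CPM in WT, 5.997 to 11.1 CPM with a median of 8.46 in FUN025/+, and 12.4, 9.62, 9.72, 6.82 and 5.44 CPM in FUN025/FUN025 eyecups. The WT mice lay close together inside the wider range of the mutant mice, and the log2 fold changes against WT were -0.23 (95% interval -0.62 to 0.16) and -0.17 (-0.57 to 0.24).

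**Figure D2:**
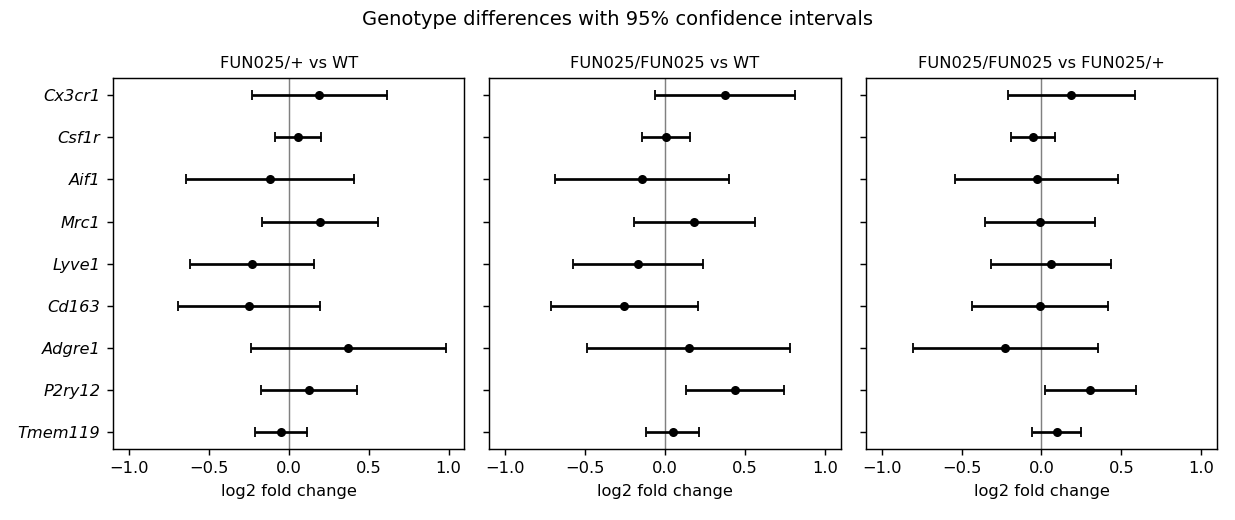
Log2 fold change (x axis, first genotype minus second) of the 9 genes in the 3 comparisons, with bars for the 95% confidence interval of edgeR's quasi-likelihood fit over 15 libraries. Intervals cross 0 for all genes except P2ry12 in both comparisons of FUN025/FUN025, where the lower bounds are 0.13 and 0.023.

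Levels can be compared between genes only per exon length. In CPM per kb of exon, averaged over 15 libraries, Csf1r was highest (43.5), followed by Tmem119 (17.0), Adgre1 (9.14), Mrc1 (7.51), Cx3cr1 (4.05), Cd163 (3.60), Aif1 (3.21), Lyve1 (3.08) and P2ry12 (1.36). Csf1r was above Tmem119 in all 15 libraries, and Lyve1 was above P2ry12 in all 15, without overlap of their ranges. Mrc1 was above Cx3cr1 in all 15 libraries although the ranges of those genes overlapped. The other neighbours changed places between mice, Tmem119 leading Adgre1 in 14 libraries Adgre1 leading Mrc1 in 10, Cx3cr1 leading Cd163 in 10, Cd163 leading Aif1 in 10 and Aif1 leading Lyve1 in 6. The ranges of each of these pairs overlapped, and genes farther apart in the order were not compared. P2ry12 was at the lowest level per kb of the 9 genes.

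**Figure D3:**
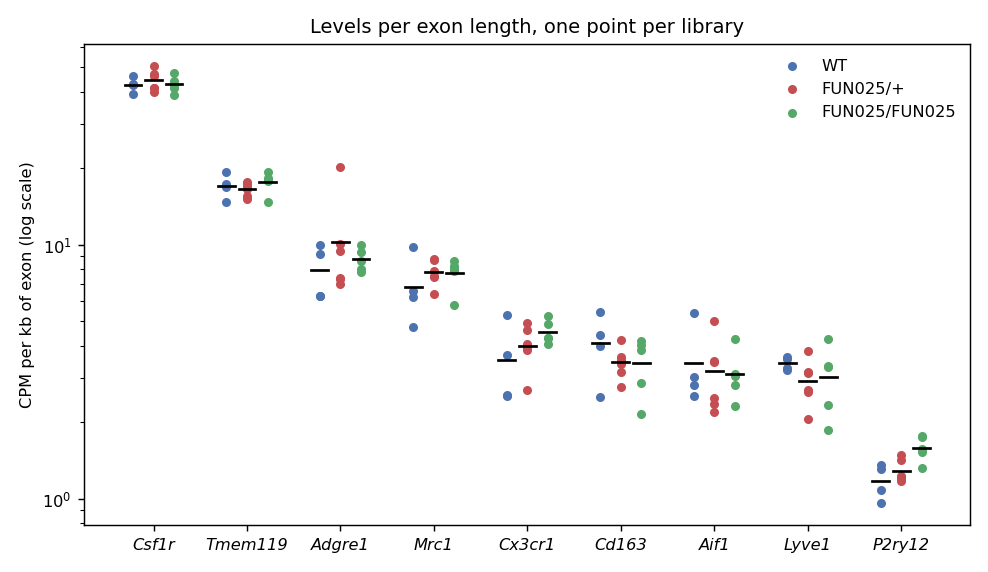
Levels in CPM per kb of exon (log axis) with 1 point per library, coloured by genotype, and a line at each genotype's mean. The genes are ordered by their mean over 15 libraries, from Csf1r at 43.5 to P2ry12 at 1.36, and the order is led by the same gene in each genotype.

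The 9 genes did not vary between mice as a single block. With the genotype means removed, 30 of the 36 pairs had a positive Pearson's r over the 15 libraries, with a median of 0.285 and a range of -0.28 to 0.83. Mrc1 and Cd163 were the closest pair (r = 0.83, adjusted permutation p = 0.0407; rho = 0.764, adjusted permutation p = 0.0698), and r was 0.729 without the 2 mice farthest from the median. Csf1r and Adgre1 had r = 0.743 (adjusted permutation p = 0.0407) and rho = 0.689 (adjusted permutation p = 0.114), and r was 0.789 without the 2 farthest mice. Cd163 and P2ry12 had r = 0.759 (adjusted permutation p = 0.0539) and rho = 0.661 (adjusted permutation p = 0.116), and r was 0.524 without the 2 farthest mice. Mrc1 and P2ry12 had r = 0.537 (adjusted permutation p = 0.341) and rho = 0.300 (adjusted permutation p = 0.650), and r was 0.282 without the 2 farthest mice. Within WT, FUN025/+ and FUN025/FUN025 mice, r was 0.921, 0.629 and 0.850 for Mrc1 with Cd163, and 0.822, 0.895 and 0.030 for Csf1r with Adgre1, each over fewer than 6 or just 6 mice. The p-values came from 100000 resamples within genotype and were adjusted over the 36 pairs, of which 6 had an unadjusted permutation p under 0.05 for Pearson's r, and no pair passed the adjusted threshold by both measures.

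**Figure D4:**
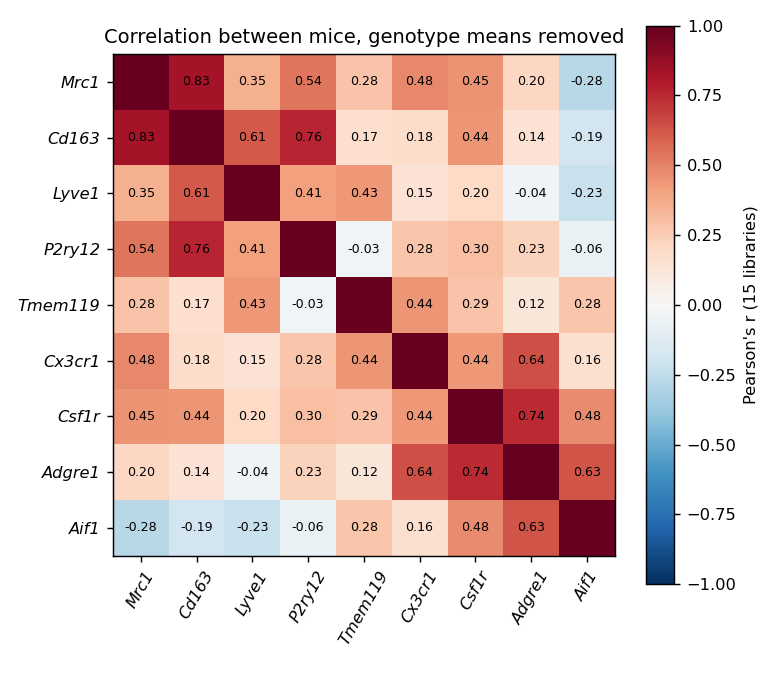
Pearson's r between each pair of the 9 genes over 15 libraries, from log2 CPM with genotype means removed, on a colour scale of -1 to 1. The highest values are those of Mrc1 with Cd163 (0.83), Cd163 with P2ry12 (0.76) and Csf1r with Adgre1 (0.74), while Aif1 is negative with Mrc1 (-0.28).

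The genes most like each member between mice, over 17587 genes with at least 1 CPM, are a description of these 15 libraries, which share tissue composition and depth. Adgre1 varied most like Lcp1 (r = 0.930), Itgb2 (0.921) and Tlr1 (0.903), the first pair being leukocyte cytoskeleton and integrin genes. FUN025/+ replicate 2, the highest library for Adgre1, also had the highest summed level of 18 macrophage lineage and core genes among FUN025/+ mice (1249 CPM). The other FUN025/+ mice were at 920 to 1124 CPM, and these r values were not computed without that mouse. Csf1r varied most like Cat (0.960), and Slc1a1 was also among its nearest (0.924); they encode catalase and a glutamate transporter and are not leukocyte genes. Tmem119 varied most like Pdgfrb (0.910), the platelet-derived growth factor receptor of pericytes and fibroblasts, Prss53 (0.861) and P3h3 (0.852). P2ry12 varied most like Mgat5 (0.889), Cfi (0.856) and Fam227a (0.818), and Mrc1 most like Pcdhgc3 (0.951), 2600006K01Rik (0.939) and Uri1 (0.928). The leading genes were Sec63, Fbxw11 and Faf2 for Cd163 (0.901, 0.895 and 0.890), Gm15541, Ganc and Abcc9 for Lyve1 (0.907, 0.877 and 0.851), Xylt2, Fzd2 and P2rx7 for Cx3cr1 (0.863, 0.861 and 0.860), and Atg5, Mospd3 and Bend5 for Aif1 (0.917, 0.870 and 0.867).

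Whole lists were read in the same way. With 18 genes of the macrophage lineage and leukocyte core (Spi1, Ptprc, Tyrobp and others), the median r was 0.685 for Adgre1, 0.617 for Csf1r, 0.580 for Aif1 and 0.391 for Cx3cr1, but 0.240 for Tmem119, 0.034 for Lyve1, -0.007 for Mrc1, -0.022 for P2ry12 and -0.094 for Cd163. With 11 microglia-enriched genes it was positive for all 9, from 0.189 for Mrc1 to 0.494 for Lyve1, with 0.352 for Tmem119, 0.322 for P2ry12 and 0.319 for Cd163. That list holds Sparc (1517 to 2085 CPM) and Olfml3 (74.9 to 146 CPM) as well as P2ry13 (2.34 to 8.27 CPM). Values of r with it are therefore not r with microglia alone. With 15 perivascular and choroidal macrophage genes the median r ran from -0.143 for Aif1 to 0.459 for Cx3cr1, with 0.286 for Mrc1 and 0.260 for Cd163. Csf1r had a higher median r with the 6 RPE markers, 0.794, than with the leukocyte core, and Adgre1 had 0.542. Tmem119 had medians of 0.561 with the 6 blood vessel endothelium markers and 0.516 with the 6 fibroblast markers, and Lyve1 had 0.584 with the same endothelial markers and 0.018 with 5 lymphatic ones. With the fibroblast markers the median r was 0.558 for Mrc1, 0.471 for Lyve1, 0.469 for Cx3cr1 and 0.449 for Cd163, and P2ry12 had its highest median with such a list, 0.426, with the 8 rod markers. For all of the 9 genes except Adgre1 and Aif1, at least 1 of the RPE, endothelial, fibroblast and rod lists had a higher median r than the leukocyte core. The highest of several short lists was set against 1 longer list, which favours such an excess. For Cx3cr1, with medians of 0.469 and 0.391, r with single core genes ran from -0.25 to 0.75. The cells that gave the transcripts of the 9 genes were not tested. Over all genes the median r with each member lay between -0.022 and 0.009.

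RefSeq promoter windows on GRCm38.p6, from 250 bases before to 50 after the gene start, were available for 5 of the 9 genes. Those of Mrc1, Cd163 and P2ry12 are printed 5′ to 3′ on the gene's strand, Mrc1 and Cd163 as the pair with the highest r between mice, and P2ry12 as the only one of the 9 genes with an unadjusted edgeR p under 0.05. Capitals mark GAGGAA on either strand (read as TTCCTC where it is on the opposite strand), the core of the purine-rich box bound by the macrophage factor PU.1. The windows are chr2:14229164-14229463 (plus strand), chr6:124304401-124304700 (plus strand) and chr3:59262936-59263235 (minus strand).
Mrc1: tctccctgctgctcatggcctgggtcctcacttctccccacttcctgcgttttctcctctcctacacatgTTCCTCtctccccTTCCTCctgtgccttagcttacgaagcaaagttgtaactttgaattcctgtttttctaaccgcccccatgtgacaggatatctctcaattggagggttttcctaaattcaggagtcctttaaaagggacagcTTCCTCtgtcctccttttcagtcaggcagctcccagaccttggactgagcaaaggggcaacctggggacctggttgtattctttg
Cd163: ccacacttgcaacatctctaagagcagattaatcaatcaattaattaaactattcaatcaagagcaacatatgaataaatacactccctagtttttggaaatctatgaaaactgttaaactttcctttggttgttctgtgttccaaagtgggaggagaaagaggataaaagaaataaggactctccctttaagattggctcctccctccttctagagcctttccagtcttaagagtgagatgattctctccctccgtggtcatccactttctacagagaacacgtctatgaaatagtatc
P2ry12: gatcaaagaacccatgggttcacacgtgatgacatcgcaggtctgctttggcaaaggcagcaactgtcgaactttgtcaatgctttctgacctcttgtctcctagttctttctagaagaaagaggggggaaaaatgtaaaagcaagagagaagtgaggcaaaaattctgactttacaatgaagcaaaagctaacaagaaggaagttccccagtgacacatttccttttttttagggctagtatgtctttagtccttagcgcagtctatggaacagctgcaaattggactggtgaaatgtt
The Mrc1 window holds 3 matches, all on the opposite strand, and the windows of Cd163 and P2ry12 hold 0. At least 1 match is found in 28.3% of all 32851 windows and 3 or more in 0.685%. The Aif1 window holds 1 match and the Cx3cr1 window 0.

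Few other genes of macrophages passed the test, and those that did moved both ways. Among the 18 leukocyte core genes, 1 fell in FUN025/+ eyecups (Maf, a macrophage transcription factor) and 2 rose in FUN025/FUN025 eyecups (among them Cd68), read against 7.09% of all tested genes higher and 6.61% lower in FUN025/+ and 7.03% and 7.02% in FUN025/FUN025. Of 11 tested microglia-enriched genes, 0 and 1 passed, the 1 being P2ry13, and of 16 perivascular and choroidal macrophage genes 0 and 1, the 1 being Stab1, which fell. Between FUN025/FUN025 and FUN025/+, where 0.327% of genes were higher and 0.195% lower, 1 gene of these 3 lists passed. The median log2 fold changes of the lists against WT were -0.13, -0.059 and 0.024 in FUN025/+ and 0.033, 0.047 and -0.035 in FUN025/FUN025. Between FUN025/FUN025 and FUN025/+ they were 0.15, 0.050 and 0.092, beside -0.004 over all tested genes, with 16 of 18, 8 of 11 and 11 of 16 genes higher in FUN025/FUN025 eyecups. The summed core levels overlapped, at 1068 to 1174 CPM in FUN025/FUN025 and 920 to 1249 CPM in FUN025/+ libraries. Genes of a list can vary together between mice, so these are not counts of separate observations.

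Cd68, a lysosomal membrane glycoprotein of phagocytes, was 35.3, 29.97, 29.8 and 37.3 CPM in WT and 44.1, 40.3, 46.7, 38.8 and 36.8 CPM in FUN025/FUN025 eyecups, overlapping in 1 mouse of each group. Its log2 fold change was 0.32 (edgeR adjusted p = 0.0167). P2ry13, a purinergic receptor of the same family as P2ry12, was 5.29, 2.74, 3.85 and 2.34 CPM in WT and 6.96, 7.24, 8.27, 5.01 and 4.99 CPM in FUN025/FUN025 eyecups. WT replicate 1 lay above the 2 lowest FUN025/FUN025 mice. The log2 fold change was 0.87 (edgeR adjusted p = 0.0152), kept its direction in 27 of 27 alternative fits and missed the threshold without WT replicate 4, with adjusted p up to 0.206 over all fits.

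Stab1, the scavenger receptor stabilin-1 of perivascular macrophages and sinusoidal endothelium, was 176, 158, 165 and 180.5 CPM in WT and 156, 149, 149.9, 136 and 141 CPM in FUN025/FUN025 eyecups, without overlap. It fell by 0.22 on the log2 scale (edgeR adjusted p = 0.0263), which missed the threshold without WT replicate 1 or 4 or FUN025/FUN025 replicate 4 or 5 (adjusted p up to 0.106) and with muscle and rod covariates (adjusted p = 0.142). Maf fell by 0.27 on the log2 scale in FUN025/+ eyecups, from 102 ± 6.61 CPM (SD, n = 4) to 84.7 ± 6.12 CPM (SD, n = 6), with an edgeR adjusted p of 0.00415. With muscle and rod markers as covariates the log2 fold change of Maf was -0.086 (edgeR adjusted p = 0.731), so that call was lost.

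Among the ligands and the proteases that release them, 9 of the 10 listed genes were tested. Of these, 2 passed in FUN025/+ and 3 in FUN025/FUN025 eyecups, beside 13.7% and 14.0% of all tested genes. The partner of the receptor Cx3cr1, Cx3cl1, was 61.4, 61.9, 65.4 and 64.1 CPM in WT, 54.9 to 59.1 CPM in FUN025/+ and 53.1, 52.6, 46.3, 47.8 and 51.7 CPM in FUN025/FUN025 eyecups. No mouse of any genotype overlapped with another genotype. Cx3cl1 fell by 0.17 on the log2 scale in FUN025/+ (edgeR adjusted p = 0.0236) and by 0.33 in FUN025/FUN025 eyecups (edgeR adjusted p = 1.88e-04), and its difference of -0.16 between the mutant genotypes did not pass (edgeR adjusted p = 0.191). The fall in FUN025/FUN025 passed in all 27 alternative fits, and that in FUN025/+ missed the threshold without WT replicate 3 or 4 or FUN025/+ replicate 3 (adjusted p up to 0.0800), with no filter on low counts and with muscle and rod covariates (adjusted p = 0.149).

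Adam10, a protease that sheds fractalkine from the cell surface, was 136, 139.7, 133 and 121 CPM in WT, 145 to 165 CPM in FUN025/+ and 155, 155, 147, 169 and 158 CPM in FUN025/FUN025 eyecups. Every mutant mouse was above every WT mouse, and the log2 fold changes were 0.24 (edgeR adjusted p = 0.00487) and 0.24 (edgeR adjusted p = 0.00553). With the same covariates they were 0.14 and 0.16, and neither passed (edgeR adjusted p = 0.510 and 0.339). Tgfb1, a factor that maintains microglial identity, fell by 0.32 on the log2 scale in FUN025/FUN025 eyecups, from 39.4 ± 4.76 CPM (SD, n = 4) to 31.6 ± 3.50 CPM (SD, n = 5), with an edgeR adjusted p of 0.0383. That call held in 17 of 27 alternative fits and in 8 of the 15 fits that each left out 1 mouse (adjusted p up to 0.144): it was lost without WT replicate 1, 3 or 4, FUN025/+ replicate 3 or FUN025/FUN025 replicate 1, 4 or 5. The CSF1R ligands did not pass: Csf1 was 51.2 ± 6.97 CPM (SD, n = 4) in WT and 51.9 ± 7.50 CPM (SD, n = 5) in FUN025/FUN025, and Il34 was 16.3 ± 0.931 and 13.7 ± 2.69 CPM (log2 fold change -0.25, 95% interval -0.52 to 0.025).

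**Figure D5:**
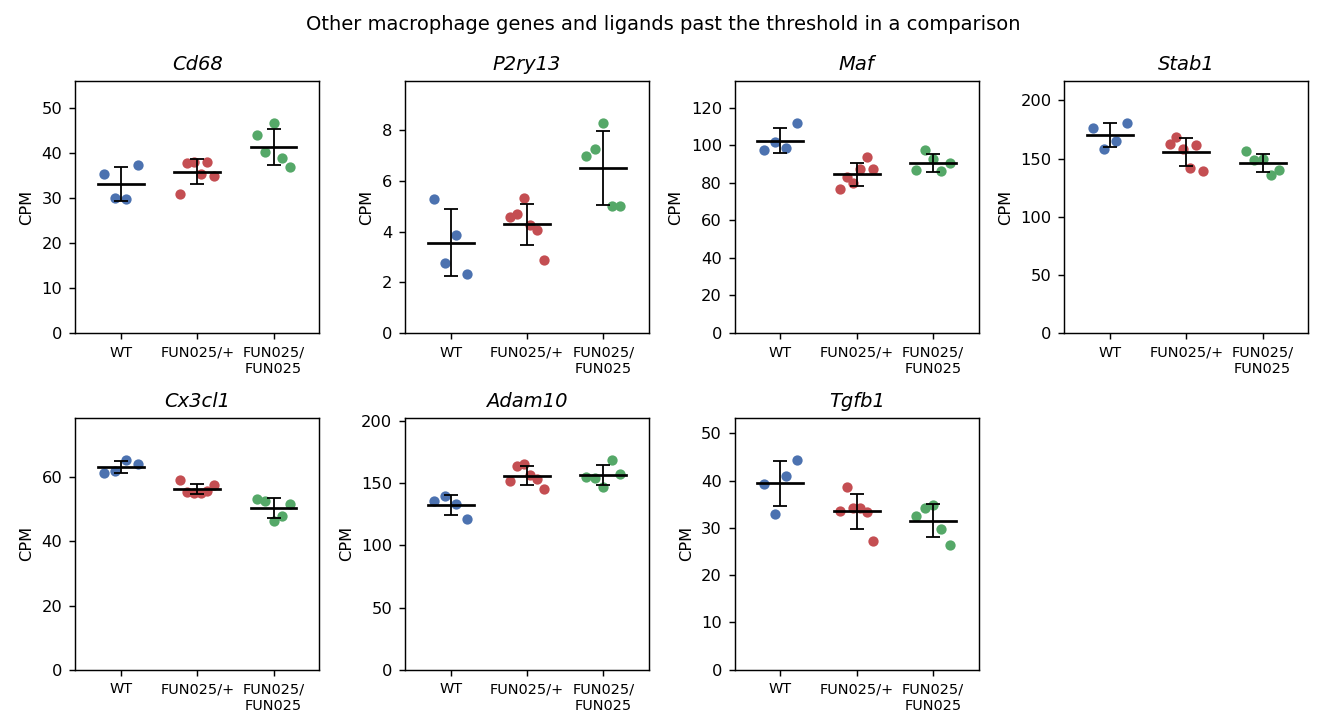
Levels in CPM of 7 further macrophage genes and ligands that passed the test in a comparison, with 1 point per mouse, a line at the mean and bars of 1 SD for 4 WT, 6 FUN025/+ and 5 FUN025/FUN025 mice. Adam10 in both mutant genotypes lies above all WT mice, and Cx3cl1 lies below them.

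Markers of other cells were read beside these genes, and against 6.61% of all tested genes called lower in FUN025/+ and 7.02% in FUN025/FUN025. Blood vessel endothelium markers fell, 3 of 6 in FUN025/+ (Cdh5, Esam and Plvap) and 5 of 6 in FUN025/FUN025 (led by Plvap, Cdh5, Esam and Tie1), and their summed level was 846 to 983 CPM in WT, 660.0 to 900 in FUN025/+ and 584 to 727 in FUN025/FUN025 eyecups. Cx3cl1 and Stab1 are also endothelial genes, and the part of the endothelial difference in their falls was not tested. None of 5 lymphatic endothelium markers (Pdpn and Reln highest) passed, and 3 were higher and 2 lower than in WT in each mutant genotype. Prox1, the factor that defines lymphatic endothelium, was 6.99 ± 3.58 CPM (SD, n = 4) in WT, 4.34 ± 1.52 CPM (SD, n = 6) in FUN025/+ and 4.03 ± 0.856 CPM (SD, n = 5) in FUN025/FUN025, and the part of lymphatic cells in the Lyve1 values was not tested. All 8 muscle markers were lower than in WT in both mutant genotypes, with median log2 fold changes of -0.64 and -0.61, and 3 passed in FUN025/+ (Acta1, Tnni2 and Myh1) and 2 in FUN025/FUN025, while 0 of 8 rod markers passed although their median log2 fold change was -1.77 and -1.85. With the muscle and rod lists as covariates, Adgre1 turned to -0.42 and -0.54 against WT with wide error, and 0 of the 9 genes passed. Of the called macrophage genes and ligands named above, Cx3cl1 in FUN025/FUN025 still passed in that fit (edgeR adjusted p = 0.00897). The calls of Maf, Adam10 and Cx3cl1 in FUN025/+ and of Cd68, P2ry13, Stab1, Tgfb1 and Adam10 in FUN025/FUN025 were lost there, at adjusted p of 0.101 to 0.731. Those of Cd68, P2ry13, Stab1, Tgfb1 and Cx3cl1 were lost with a log2 fold change farther from 0 than without the covariates (0.42, 0.92, -0.30, -0.37 and -0.28). Of the endothelial calls, Esam passed in that fit in FUN025/+ (edgeR adjusted p = 0.0494), and Cdh5 and Esam in FUN025/FUN025 (0.0140 and 0.00227). Those of Cdh5 and Plvap in FUN025/+ (edgeR adjusted p = 0.163 and 0.288) were lost. So were those of Plvap, Tie1 and Pecam1 in FUN025/FUN025 (0.0528, 0.0646 and 0.111), all with larger falls.

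Few markers of other leukocytes passed, read against 13.7% of all tested genes in FUN025/+ and 14.0% in FUN025/FUN025. In lists of so few genes, 0 calls is not far from those shares. Of the monocyte genes 0 of 5 tested were called in any comparison (Plac8 and Ccr2 highest), with Ccr2 at 5.48 to 10.7 CPM and Ly6c2 at no more than 15 counts in a library. All 5 were higher in FUN025/+ and 4 of 5 in FUN025/FUN025 than in WT, with a median log2 fold change of 0.26 and 0.29, and their summed level overlapped between genotypes, at 16.4 to 22.5 CPM in WT, 18.3 to 25.9 in FUN025/+ and 20.5 to 26.3 in FUN025/FUN025 eyecups. No call was made among 3 T and NK cell genes (Cd4 and Lck highest, Cd3e at no more than 7 counts), 4 B cell genes (Cd79a and Cd79b highest), 1 neutrophil gene (S100a9, with Ly6g at no more than 2 counts) or 6 proliferation genes (Cdk1 and Top2a highest). Of 6 dendritic cell genes only Zbtb46, which endothelium also expresses, fell (by 0.45 on the log2 scale in FUN025/FUN025, edgeR adjusted p = 0.0163), and of 4 tested mast cell genes only the chymase Cma1 fell (by 0.96 in FUN025/+, edgeR adjusted p = 0.0182). Both calls were lost with muscle and rod covariates (edgeR adjusted p = 0.372 and 0.152), at log2 fold changes of -0.34 and -1.57. The median log2 fold changes against WT were -0.17 and -0.16 for the dendritic cell list and -0.60 and -0.26 for the mast cell list. The summed level of the dendritic cell list was 36.3 to 42.1 CPM in WT, 27.5 to 39.1 in FUN025/+ and 30.7 to 35.8 in FUN025/FUN025 eyecups, so that every FUN025/FUN025 library was below every WT library. None of the 6 RPE (Ttr and Rgr highest) or 6 fibroblast markers (Dcn and Col1a2 highest) passed, and of 6 melanocyte markers Sox10 fell in FUN025/FUN025 eyecups. The calls of Cdh5 and Esam in FUN025/+ were lost without WT replicate 3 or 4 (adjusted p up to 0.0982 and 0.0702), those of Zbtb46, Tie1 and Pecam1 without WT replicate 4, and that of Cma1 without WT replicate 2 or 4. In the 15 fits that each left out 1 mouse, Sox10 passed in 11, Plvap in FUN025/+ in 2, Myh1 and Tnni2 in FUN025/+ in 5 and 10, and Acta1 and Myh1 in FUN025/FUN025 in 8 and 11.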

How the data were processed

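Posterior eyecups were taken from individual 2.5-month-old mice, and poly(A) RNA was made into NEBNext libraries for paired-end HiSeq sequencing. The authors deposited whole-number read counts per Ensembl gene, without normalization. The submitters' processing notes name FastQC 0.11.8, Trimmomatic 0.39, HISAT2 2.1.0, SAMtools, featureCounts 2.0.0 and the build GRCm38, with no roles. The strand setting and the annotation are not given in the sources used here, and reads shared by overlapping genes cannot be split afterwards. Genotypes came from the sample titles.

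GENCODE M21 (GRCm38) gave symbols, positions and exon lengths for 55240 of the 55421 genes. The 15% of genes with the lowest variance and then low-count genes (edgeR's filterByExpr) were removed. Counts were scaled by TMM, and all 15 libraries entered one quasi-likelihood fit (edgeR 4.0.16, R 4.3.3) with Benjamini-Hochberg adjustment over 18979 genes and a threshold of 0.05. The fit was tested on simulated data. Correlations used log2 CPM (prior count 2) with genotype means removed and scipy 1.17.1. Shared sequence means stretches of 31 bases that occur in another gene.

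The 9 genes and all lists were chosen with earlier results of these data known. From each list, genes with an adjusted p under 0.05 are named (at most 4, by size of change), otherwise the 2 with the highest mean CPM, and for each of the 9 genes the 3 with the highest r. A few genes of these rules are not reported here. Genes at no more than 3 counts in a library were treated as near the floor. Ccl21a, which has several identifiers, was left out. Alternatives were DESeq2-type and upper quartile scaling, DESeq2 1.42.0, limma 3.58.1 (limma-trend), other filters, fits of the compared genotypes alone, a replicate block, thinning to the shallowest library, covariates (muscle and rod markers, or Xist) and leaving out each mouse. Libraries of 1 genotype were not copies of each other (chi-square per gene 3.23 to 18.9).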

Additional observations from a re-analysis of the deposited data

Results flagged for a closer look

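A sample far from the others of its genotype was looked for in 51 sets of values, those of the 9 genes and of other macrophage genes and ligands in each genotype, and chance gives about 1 in 20. It was found in 3. Adgre1 was 65.5 CPM in FUN025/+ replicate 2, and the next FUN025/+ mouse was at 32.7 CPM. Aif1 was 8.23 CPM in WT replicate 4, and the next WT mouse was at 4.60 CPM. Mrc1 was 37.0 CPM in FUN025/FUN025 replicate 4, and the next lowest FUN025/FUN025 mouse was at 50.2 CPM.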

How the results depend on the processing

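No member was called by DESeq2 or limma-trend. Of 729 alternative values of the log2 fold changes, 692 kept their direction and their side of the threshold, 6 passed it and 31 changed sign. The count of called members in FUN025/FUN025 against WT was 1 in place of 0 with upper quartile scaling and with at least 10 counts in every library (P2ry12, edgeR adjusted p = 0.0467 and 0.0462). With 1 mouse left out it ran from 0 to 1 in each comparison with WT. Signs changed for P2ry12 in FUN025/+ after thinning (-0.014), with muscle and rod covariates for Cx3cr1 (-0.029), Csf1r (-0.015) and Adgre1 (-0.42) in FUN025/+ and Csf1r (-0.062) and Adgre1 (-0.54) in FUN025/FUN025, and with limma-trend for Aif1 between the mutant genotypes (0.0021). The cause was not tested. With 1 mouse left out, values that changed sign ran from -0.30 to 0.19 (Aif1) and -0.11 to 0.025 (Tmem119) in FUN025/+, and from -0.031 to 0.045 (Csf1r), -0.0091 to 0.12 (Tmem119) and -0.28 to 0.16 (Aif1) in FUN025/FUN025 against WT. Between the mutant genotypes they ran from -0.17 to 0.15 (Aif1), -0.091 to 0.12 (Cd163), -0.31 to 0.087 (Adgre1), -0.061 to 0.080 (Mrc1) and -0.098 to 0.19 (Lyve1).

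With the replicate block, 0 members were called in each comparison, and signs changed for Csf1r in FUN025/FUN025 against WT (-0.0083) and Aif1 between the mutant genotypes (0.019). Of the other named genes, the calls of Cx3cl1, Cdh5, Esam, Plvap and Myh1 in FUN025/+ and of Cd68, Tgfb1, Sox10 and Myh1 in FUN025/FUN025 eyecups were lost under the block. The replicate numbers name different animals, and same-numbered mice did not deviate together (mean r -0.248, -0.067 and 0.055), so the numbers were not taken as pairs. The depth of 33 to 68 counts limits P2ry12.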
